A study of Mus musculus with 10 samples.

Results

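Mitochondrial ribosomal protein genes are the nuclear genes that encode the proteins of the ribosome inside mitochondria. They were taken by symbol, as every gene listed under Mrpl or Mrps followed by a digit, without pseudogenes, which gave 78 genes of the 18055 listed, 49 of them Mrpl and 29 Mrps. All 78 were listed in every library and passed the filter on low counts. The files came from RNA sequencing of primary hepatocytes of C57BL/6 mice grown in DMEM with 10% FBS and, per the study's methods, held in serum-free DMEM before treatment, with 2 libraries for each of 5 treatments. These were Vehicle, PA (200 μM palmitate for 24 h), LA (12 μM linoleate for 24 h), and PA+NTP and LA+NTP, in which cells received 0.4 NU/mL Neurotropin (NTP), a non-protein extract of inflamed rabbit skin used against chronic pain, for 1 h before the free fatty acid (FFA). No group received NTP without an FFA, and wild-type cells were used throughout. Nothing in the labels says whether the 2 libraries of a group came from separate mice or cultures, so the p-values measure the spread between these libraries, which may be technical.

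The mitochondrial ribosome translates the few mRNAs of the mitochondrial genome, all of which encode subunits of the respiratory chain and of ATP synthase. Its RNAs come from the mitochondrial genome, but all of its proteins are made in the cytosol and imported, so that the hepatocyte must supply them to keep oxidative phosphorylation running. The small subunit (proteins named Mrps) decodes the mRNA and the large subunit (Mrpl) joins the amino acids, and each holds proteins shared with bacteria beside proteins found only in mitochondria. A few names mislead. The Mrps30 and Mrps18a proteins sit in the large subunit, Mrps36 has been placed in the oxoglutarate dehydrogenase complex, and Mrpl58 is a peptidyl-tRNA hydrolase that became part of the large subunit.

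Library totals ranged from 13142588 to 60046937 expected counts (RSEM's estimate of the reads from each gene), a 4.57-fold range, and a member had between 112 and 7074 expected counts in a library. Hepatocyte markers were present, with Alb at 1929 to 2818 FPKM (fragments scaled for transcript length and library size), Ttr at 22.97 to 79.31 FPKM and Cyp2e1 at 15.23 to 20.74 FPKM, whereas the Kupffer cell markers Clec4f (0.03 to 0.29 FPKM) and Timd4 (0 to 0.20 FPKM) were near 0. The 5 Kupffer cell or macrophage markers, summed, moved between groups, from 122.66 and 126.75 FPKM in the LA libraries to 260.99 and 289.67 FPKM in the PA+NTP libraries, most of it Cd68. The 6 hepatocyte markers, summed, moved as well, with 3287.96 and 3493.86 FPKM in Vehicle, 2311.50 and 2537.89 FPKM in PA, 2793.63 and 3127.46 FPKM in PA+NTP, 3315.87 and 3373.93 FPKM in LA, and 3934.30 and 4176.06 FPKM in LA+NTP. The part of either list in the results was not tested. Of the other lists of 5 markers each, those of lymphocytes summed to at most 0.79 FPKM, those of endothelial and stellate cells to 15.52 to 21.92 FPKM, and those of cholangiocytes to 406.54 to 703.79 FPKM, nearly all of it Spp1. The libraries also differed by base composition. Over all genes, the deviation of a gene from its own mean correlated with transcript GC content negatively in PA (Spearman's rho -0.473 and -0.484) and LA (-0.574 and -0.568) and positively in the other 6 libraries (0.346 to 0.576). Values after removal of that trend are given for many of the members named, not for all. The absence of such a value does not mean that a member was unaffected. In bulk RNA, fewer cells of a type and less RNA per cell cannot be told apart.

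Over the whole family, the supply of transcripts changed little. Summed over the 78 genes, the level was 3245.8 and 3149.2 FPKM in the Vehicle libraries, 3185.0 and 3206.8 FPKM in PA, 3260.6 and 3512.0 FPKM in PA+NTP, 2961.5 and 2852.7 FPKM in LA, and 3220.7 and 3286.0 FPKM in LA+NTP. Both LA libraries lay below the 8 others, and the PA libraries lay between the Vehicle libraries. The members made up 3019 to 3595 counts per 1000000 of a library. With 2 libraries against 2, no single value can pass a two-sided exact permutation test, whose smallest p is 0.333.

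Single members differed widely in level. Mrpl52, a large subunit protein found only in mitochondria, led with a mean FPKM of 164.69 over the 10 libraries, followed by Mrpl33 (164.54), Mrpl20 (106.83) and Mrps21 (98.97). The lowest means were those of Mrpl57 (7.07), Mrpl41 (8.78) and Mrps25 (8.88). In the 2 Vehicle libraries Mrpl52 was at 196.31 and 179.77 FPKM and Mrpl33 at 165.65 and 166.34 FPKM, so these neighbors did not overlap there, but they did over all groups. Mean FPKM fell with transcript length over the members (Spearman's rho -0.616, over 78 genes, a description). Their transcripts were short, with a median of 1057 bases against 2552 bases over all genes, and their median GC content was 50.9% against 50.2%.

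**Figure D1:**
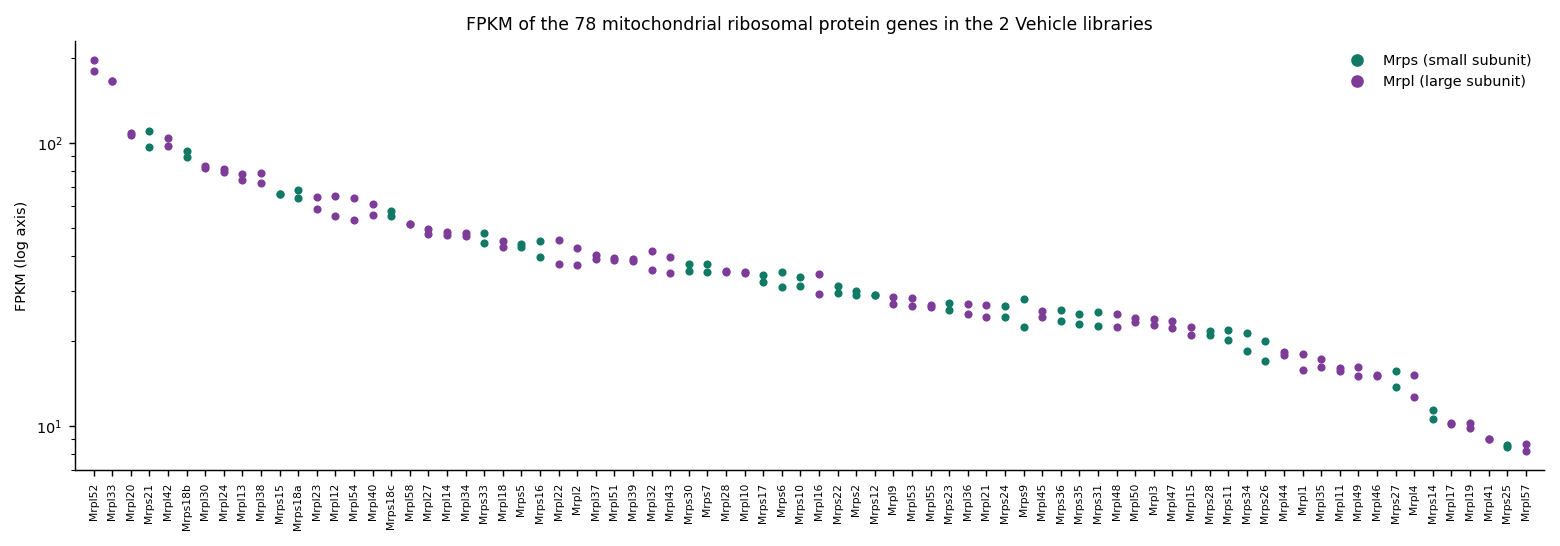
FPKM of each member in the 2 Vehicle libraries on a log axis, 1 column a gene, ordered by the Vehicle mean, with Mrps genes in green and Mrpl genes in purple. Mrpl52 (196.31 and 179.77) stands at the left end and Mrpl57 (8.66 and 8.18) at the right, and genes of both subunits are spread over the whole range.

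Promoter windows, from 250 bases before to 50 bases after a gene's start, were given by RefSeq (GRCm38.p6) for 69 of the 78 members, in 75 windows. The letters CCGGAAG, the core bound by ETS factors such as GABP, occurred on either strand in 34.7% of the members' windows and in 8.9% of all 32851 windows. AAGATGG, the core bound by YY1, occurred in 17.3% against 6.3%, and GCATGCGC, bound by NRF1, in 10.7% against 2.7%. The TATA box letters TATAAA were present in 6.7% against 13.6%, and the GC box GGGCGG in 52.0% against 35.7%. The members' windows had a median GC content of 58.7% and all windows 52.7%, which itself changes how often such letters occur. These are matches of letters only. In the 21 windows of members that were higher with PA at an adjusted p under 0.05 and the 16 windows of members that were lower, the ETS letters were found in 33.3% and 37.5%, the YY1 letters in 19.0% and 37.5%, and the GC box in 38.1% and 68.8%. The median GC contents were 56.3% in the former and 61.8% in the latter.

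The windows of 6 members that the comparisons below turn on are printed 5′ to 3′ on the gene's own strand, with matches to the ETS, YY1 and NRF1 letters in capitals. Mrpl55 had the largest change with PA among the members and holds no match (chr11:59202236-59202535, plus strand). Mrpl52, the member of highest level, holds 2 ETS matches and 1 YY1 match (chr14:54426659-54426958, plus strand). Mrpl36 holds a YY1 match (chr13:73330759-73331058, plus strand), Mrpl10 an NRF1 match (chr11:97041332-97041631, plus strand), and Mrps22, the 1 member raised at least 1.5-fold by PA, an ETS match (chr9:98601630-98601929, minus strand). Mrps11 (chr7:78782881-78783180, plus strand) starts 42 bases from the start of Mrpl46 on the other strand.
Mrpl55: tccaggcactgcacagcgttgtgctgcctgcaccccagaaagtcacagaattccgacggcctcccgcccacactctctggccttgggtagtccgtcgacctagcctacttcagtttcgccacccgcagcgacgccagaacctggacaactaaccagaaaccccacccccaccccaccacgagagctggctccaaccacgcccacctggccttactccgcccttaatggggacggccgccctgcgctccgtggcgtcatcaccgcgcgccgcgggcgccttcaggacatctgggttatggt
Mrpl52: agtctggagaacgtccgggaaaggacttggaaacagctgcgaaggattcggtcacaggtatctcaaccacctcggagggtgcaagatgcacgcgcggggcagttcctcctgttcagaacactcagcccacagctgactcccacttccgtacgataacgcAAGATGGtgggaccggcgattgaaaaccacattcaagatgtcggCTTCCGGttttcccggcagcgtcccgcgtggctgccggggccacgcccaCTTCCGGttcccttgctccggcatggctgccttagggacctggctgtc
Mrpl36: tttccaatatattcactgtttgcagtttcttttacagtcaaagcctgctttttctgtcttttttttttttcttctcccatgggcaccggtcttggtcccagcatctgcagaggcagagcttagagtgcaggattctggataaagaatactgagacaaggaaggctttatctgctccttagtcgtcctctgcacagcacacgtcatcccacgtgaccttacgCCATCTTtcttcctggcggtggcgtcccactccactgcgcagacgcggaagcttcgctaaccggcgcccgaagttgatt
Mrpl10: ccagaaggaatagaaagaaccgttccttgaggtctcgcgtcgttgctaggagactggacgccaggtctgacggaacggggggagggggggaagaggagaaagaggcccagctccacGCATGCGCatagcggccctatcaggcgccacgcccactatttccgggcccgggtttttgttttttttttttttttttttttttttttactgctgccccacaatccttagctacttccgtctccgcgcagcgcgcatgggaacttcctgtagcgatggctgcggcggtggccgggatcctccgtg
Mrps22: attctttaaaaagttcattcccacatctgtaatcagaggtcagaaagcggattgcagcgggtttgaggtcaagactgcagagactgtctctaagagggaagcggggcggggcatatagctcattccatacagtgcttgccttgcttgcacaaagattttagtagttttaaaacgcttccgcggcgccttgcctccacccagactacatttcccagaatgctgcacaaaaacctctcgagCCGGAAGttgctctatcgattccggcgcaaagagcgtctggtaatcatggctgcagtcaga
Mrps11: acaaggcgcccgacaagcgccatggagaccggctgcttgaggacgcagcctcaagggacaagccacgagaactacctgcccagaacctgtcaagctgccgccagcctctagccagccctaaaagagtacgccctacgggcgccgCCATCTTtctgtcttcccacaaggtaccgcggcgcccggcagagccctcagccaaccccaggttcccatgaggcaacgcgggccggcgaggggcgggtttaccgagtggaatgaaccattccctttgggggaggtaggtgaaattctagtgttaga

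The first comparison asked how palmitate changed the family. With PA, members moved in both directions by small amounts. At an adjusted p under 0.05 (edgeR's quasi-likelihood test over 14097 genes, used for every adjusted p here), 24 of the 78 members rose, where 23.5% of all tested genes did, and 18 fell, where 22.0% did. At a fold change of at least 1.5 as well, the threshold for a call from here on, 1 member was higher (6.00% of all genes) and 3 were lower (8.92%). The members' median log2 fold change was 0.103 against -0.008 over all genes, and their spread (SD 0.341) was below that of all genes (0.696). Mrps genes had a median of 0.145 and Mrpl genes of 0.063.

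Mrpl55, a large subunit protein (gene ID 67212, chr11:59202486-59206138), was at 26.75 and 26.45 FPKM in the Vehicle libraries and at 14.46 and 14.10 FPKM in the PA libraries. The PA libraries agreed closely and lay far below Vehicle, a log2 fold change of -0.87 ± 0.13 (SE, adjusted p = 7.93e-05). Mrpl14, whose protein lies at the face between the subunits, went from 48.55 and 47.31 FPKM to 27.50 and 29.59 FPKM (-0.70 ± 0.11, adjusted p = 0.000107). Mrpl4, which helps to line the exit tunnel for the new chain, went from 15.18 and 12.73 FPKM to 6.56 and 9.42 FPKM, without overlap but with a wide spread (-0.71 ± 0.14, adjusted p = 0.000932). Its call was lost without Vehicle replicate 1 (-0.58) or without PA replicate 1 (-0.54).

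Mrps22, a small subunit protein in which inherited defects cause human mitochondrial disease, was the 1 member called higher. It was at 31.23 and 29.50 FPKM with Vehicle and at 44.93 and 47.54 FPKM with PA (0.64 ± 0.08, adjusted p = 3.19e-05). Mrpl44, which resembles a ribonuclease, rose from 18.36 and 17.83 FPKM to 26.05 and 26.53 FPKM, and its log2 fold change of 0.57 ± 0.07 fell just short of the fold threshold. Mrpl1, part of the stalk through which spent tRNA leaves, rose by 0.56 ± 0.08 on the log2 scale, from 15.80 and 17.95 FPKM to 24.05 and 25.78 FPKM. The number of members called rose from 4 to 9 without PA replicate 2, which leaves the shallower PA library alone. After the GC trend had been removed, 4 members were called higher (3.77% of all genes) and 2 lower (4.76%). The calls were then Mrpl44 (0.70), Mrps18a (0.69), Mrpl13 (0.61) and Mrps34 (0.60) above and Mrpl57 (-0.83) and Mrpl55 (-0.71) below, so that Mrpl55 alone kept its call. Transcripts of other genes, mainly Mapk8ip3 and Nme3, share 73.8% of the 31-base sequences of Mrps34. Mrps22 was at 0.51, Mrpl14 at -0.26 (adjusted p = 0.0805), Mrpl4 at -0.23 (adjusted p = 0.216) and Mrpl1 at 0.22 (adjusted p = 0.0625). At an adjusted p under 0.05 alone, 23 members were then higher and 6 lower, where 2651 and 1793 of all 14097 genes were. With a length trend removed instead, 4 were called higher and 3 lower. The median over all genes was then 0.033, and shares over all genes were not counted in that setting. Members named only for such GC-adjusted calls (Mrpl13, Mrps34 and Mrpl17) were chosen after their values were seen.

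**Figure D2:**
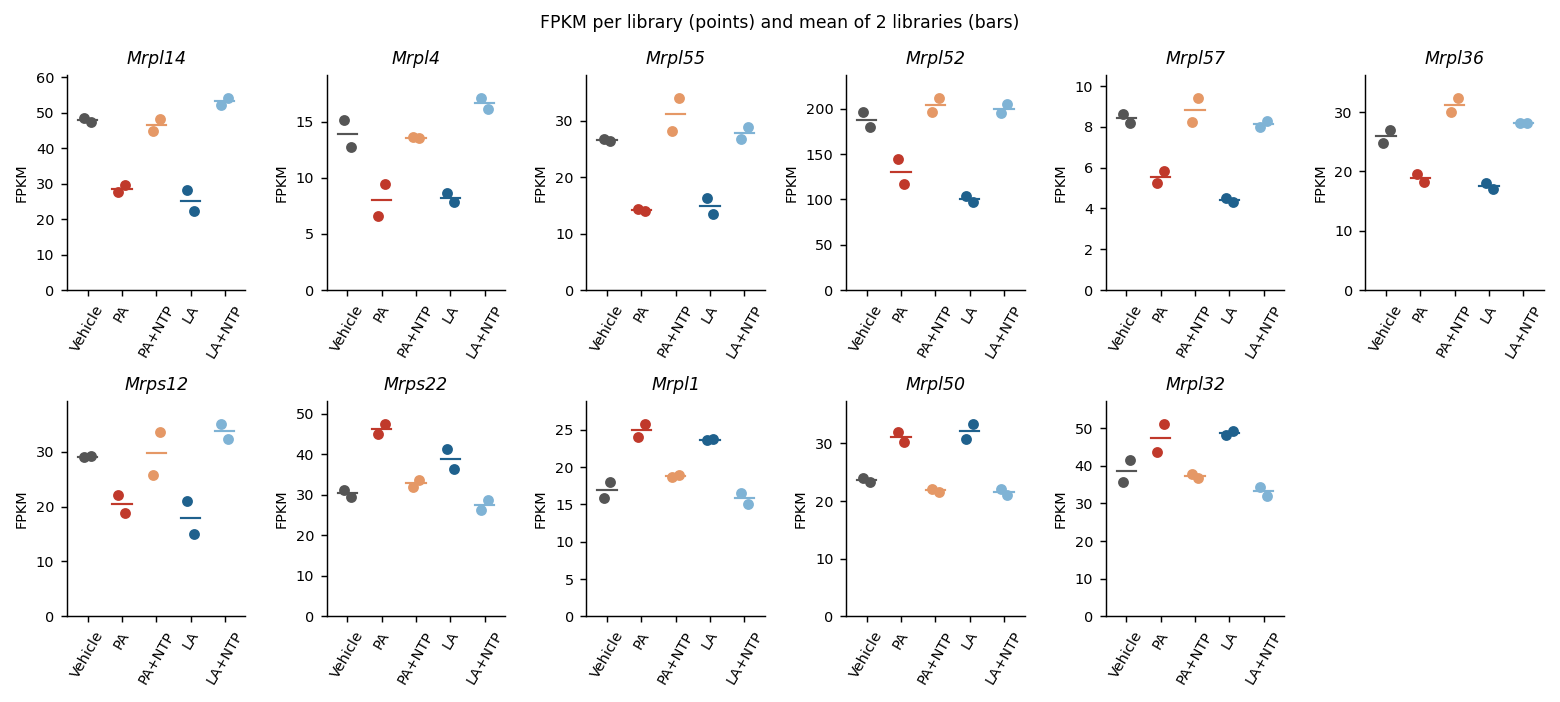
FPKM of 11 members in the 5 groups, with each library as a point and the mean of 2 libraries as a bar; every axis starts at 0. In the first 7 panels both PA and both LA libraries lie below the Vehicle libraries and both NTP groups lie higher again, as for Mrpl55 (14.46 and 14.10 FPKM in PA, 28.26 and 34.13 FPKM in PA+NTP), while Mrps22, Mrpl1, Mrpl50 and Mrpl32 run the other way. Those 7 were picked for calls in at least 2 comparisons and the rest by name, so the pattern follows partly from that choice. The comparisons with Vehicle and with NTP share the FFA libraries.

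Linoleate was compared with the same Vehicle libraries, so its values stand beside those of PA and are no independent repeat of them. With LA, 14 members rose (20.8% of all genes) and 21 fell (20.5%) at an adjusted p under 0.05. None was called higher (3.53% of all genes) and 6 were called lower (7.11%). The median over the members was -0.023 against -0.007 over all genes, with Mrps genes at 0.041 and Mrpl genes at -0.029, an order that turned after removal of the GC trend (-0.097 and 0.015). Library-size scaling gave 9 members that rose and 24 that fell, and removal of a length trend 20 and 18. Over all genes the medians in these settings were -0.053 and 0.034, and shares were not counted. The 6 were Mrpl57, Mrpl14, Mrpl52, Mrpl55, Mrpl4 and Mrps12.

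Mrpl57, a large subunit protein found only in mitochondria and the member of lowest level, was at 8.66 and 8.18 FPKM with Vehicle and 4.50 and 4.31 FPKM with LA (-0.89 ± 0.11, adjusted p = 2.48e-05). Mrpl14 was at 28.30 and 22.17 FPKM with LA (-0.87 ± 0.11), and Mrpl52 went from 196.31 and 179.77 FPKM to 104.29 and 97.33 FPKM (-0.85 ± 0.10). Mrpl55 was at 16.39 and 13.43 FPKM (-0.78 ± 0.12) and Mrpl4 at 8.65 and 7.83 FPKM (-0.70 ± 0.14). In none of these did an LA library reach a Vehicle library.

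Mrps12, the counterpart of the bacterial protein that guards decoding accuracy, went from 29.02 and 29.19 FPKM to 20.97 and 15.04 FPKM (-0.63 ± 0.16, adjusted p = 0.00501), and this rested on LA replicate 2, without which the value was -0.42 with an adjusted p of 0.0767. The Mrpl4 value was -0.58, short of the fold threshold, without Vehicle replicate 1. The count of called members rose from 6 to 10 without Vehicle replicate 2. The largest positive values were those of Mrpl1 (0.52 ± 0.08, 23.61 and 23.75 FPKM with LA) and Mrpl50 (0.48 ± 0.07, from 24.07 and 23.33 FPKM to 30.79 and 33.39 FPKM), both past the adjusted p but under the fold threshold. After the GC trend had been removed, no member was called higher (1.05% of all genes) and 3 were called lower (2.18%), namely Mrpl57 (-1.20), Mrps16 (-0.66) and Mrpl55 (-0.63). Mrpl14 was then at -0.39 and Mrpl52 at -0.51, both with an adjusted p under 0.05, while Mrpl4 (-0.19, adjusted p = 0.374), Mrps12 (-0.18, adjusted p = 0.498), Mrpl1 (0.14, adjusted p = 0.273) and Mrpl50 (0.17, adjusted p = 0.125) did not pass it.

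**Figure D3:**
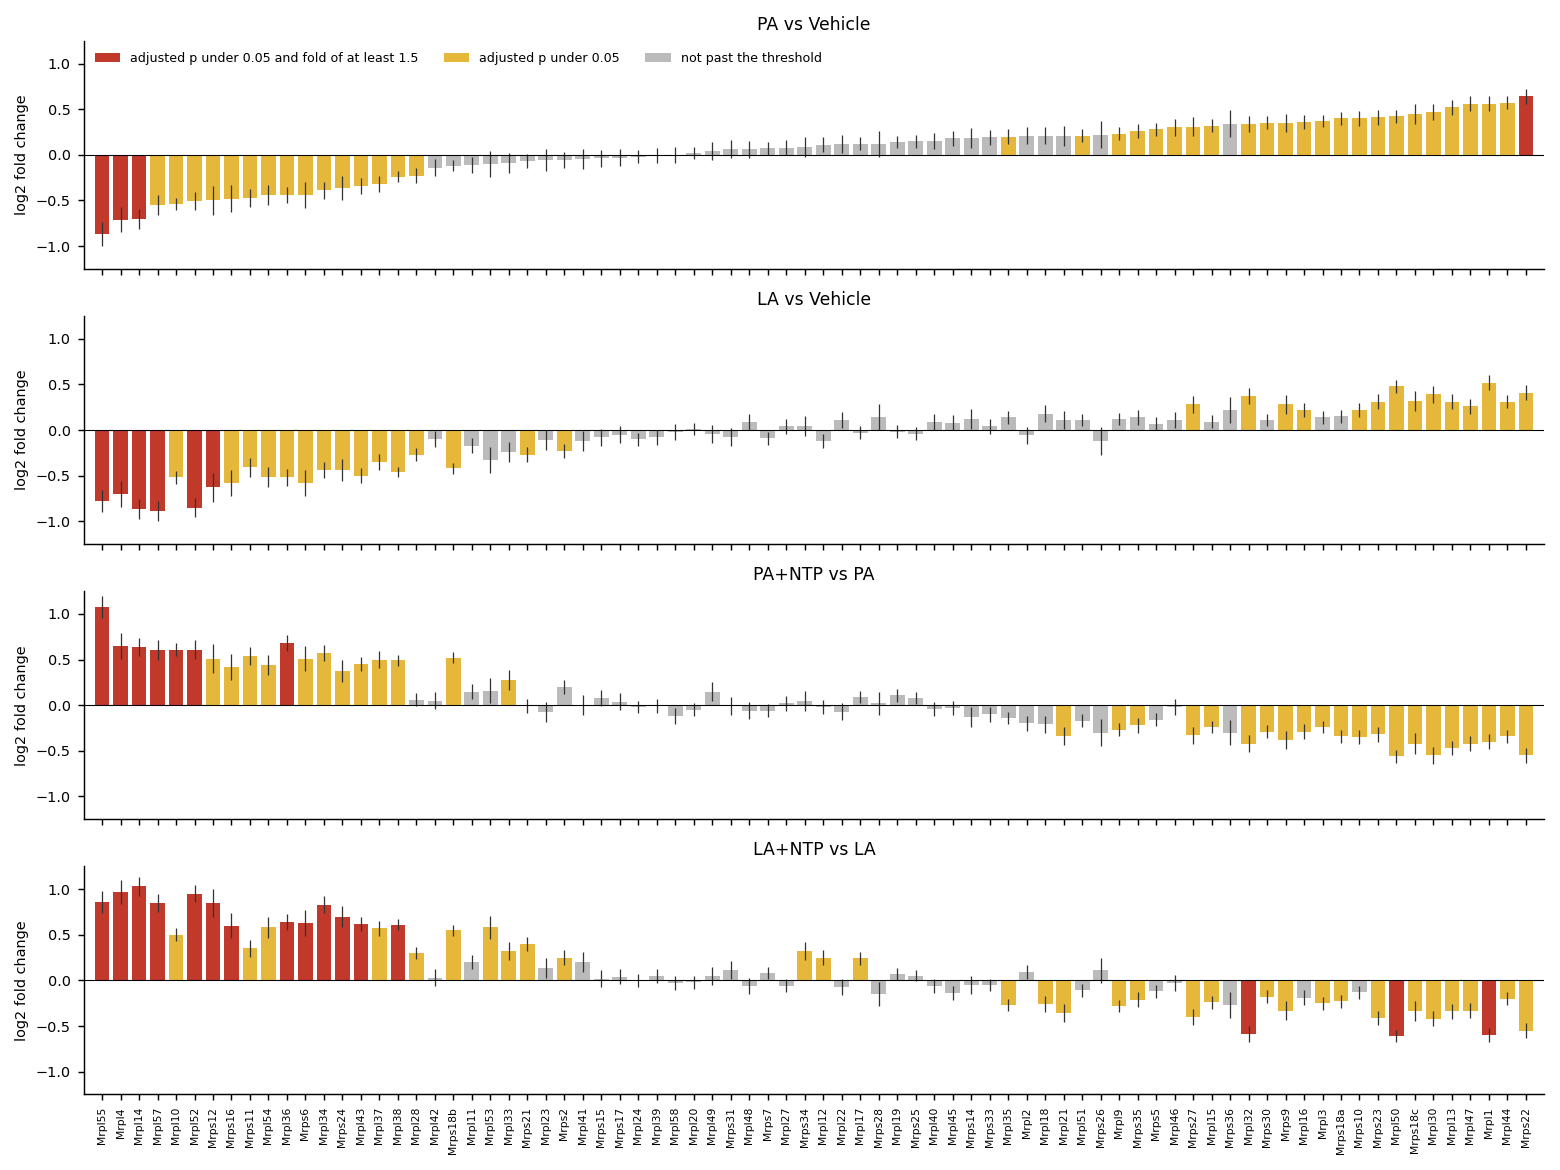
Log2 fold change of the 78 members in 4 comparisons, as bars with the standard error, all in the order of the PA values; red bars passed adjusted p and fold thresholds, yellow bars the adjusted p alone, and grey bars neither. Bars at the left are negative with PA (3 red) and LA (6 red) and positive with NTP (7 red with PA+NTP and 13 with LA+NTP), and those at the right run the other way.

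NTP before palmitate was compared with palmitate alone. With PA+NTP, 19 members rose (21.7% of all genes) and 21 fell (23.0%) at an adjusted p under 0.05, and 7 were called higher (8.74%) and none lower (5.11%). The median over the members was -0.024 against 0.010 over all genes. All 7 are Mrpl genes, namely Mrpl55, Mrpl36, Mrpl4, Mrpl14, Mrpl10, Mrpl52 and Mrpl57.

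Mrpl55 went from 14.46 and 14.10 FPKM with PA to 28.26 and 34.13 FPKM with PA+NTP, the largest change of a member in the 4 comparisons plotted above (1.08 ± 0.12, adjusted p = 1.08e-05). Mrpl36, the counterpart of a very small bacterial ribosomal protein, went from 19.59 and 18.16 FPKM to 29.95 and 32.45 FPKM (0.68 ± 0.09, adjusted p = 3.9e-05). Mrpl10, the base of the stalk that recruits translation factors, went from 22.42 and 24.35 FPKM to 37.30 and 37.40 FPKM (0.61 ± 0.07). Its partner in that stalk, Mrpl12, was at 64.08 and 62.79 FPKM with PA and at 62.93 and 66.73 FPKM with PA+NTP (-0.02 ± 0.08, adjusted p = 0.838). With the GC trend removed, Mrpl12 was at -0.33 (adjusted p = 0.00875) in that comparison and at 0.40 (adjusted p = 0.00227) with PA relative to Vehicle. Transcripts of other genes, among them Gm11574 on the other strand, share 17.3% of the 31-base sequences of Mrpl10.

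Among the members that fell, Mrpl50 went from 31.98 and 30.22 FPKM to 22.07 and 21.63 FPKM (-0.56 ± 0.07, adjusted p = 2.16e-05) and Mrpl30 from 120.38 and 103.79 FPKM to 73.96 and 84.31 FPKM (-0.55 ± 0.09, adjusted p = 0.000136). Of the 7 calls, only those of Mrpl55 and Mrpl36 held whichever library was left out. Mrpl10 (0.57), Mrpl57 (0.55) and Mrpl4 (0.48) fell short of the fold threshold without PA replicate 1, Mrpl52 (0.44) without PA replicate 2, and Mrpl14 (0.57), Mrpl52 (0.54) and Mrpl57 (0.48) without PA+NTP replicate 2, all still with an adjusted p under 0.05. Mrpl4 stood at 0.99 without PA replicate 2. The count of calls went to 14 without PA replicate 2 and to 11 without PA+NTP replicate 1. After the GC trend had been removed, 3 members were called higher (3.62% of all genes), namely Mrpl55 (0.92), Mrpl57 (0.88) and Mrpl36 (0.61), and 1 lower (2.52%), Mrps18a (-0.64). Mrpl10 (0.47), Mrpl50 (-0.28) and Mrpl30 (-0.55) still had an adjusted p under 0.05, whereas Mrpl4 (0.15, adjusted p = 0.427), Mrpl14 (0.17, adjusted p = 0.242) and Mrpl52 (0.27, adjusted p = 0.0544) did not. At an adjusted p under 0.05 alone, 11 members were then higher and 23 lower, where 1520 and 2316 of all 14097 genes were. With a length trend removed instead, 2 were called higher and 3 lower, where the median over all genes was -0.034. The split of 7 and 0 did not hold in either setting. Shares over all genes were not counted for the length trend, so these counts do not set the members apart.

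NTP before linoleate gave the most calls. With LA+NTP, 26 members rose relative to LA (25.9% of all genes) and 21 fell (25.6%) at an adjusted p under 0.05, and 13 were called higher (11.7%) and 3 lower (7.57%). The median was 0.026 against 0.009 over all genes. The 13 were 9 Mrpl genes (Mrpl14, Mrpl4, Mrpl52, Mrpl55, Mrpl57, Mrpl34, Mrpl36, Mrpl43 and Mrpl38) and 4 Mrps genes (Mrps12, Mrps24, Mrps6 and Mrps16).

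Mrpl14 went from 28.30 and 22.17 FPKM with LA to 52.13 and 54.25 FPKM with LA+NTP (1.03 ± 0.10, adjusted p = 1.94e-06). Mrpl4 went from 8.65 and 7.83 FPKM to 17.16 and 16.14 FPKM (0.97 ± 0.13, adjusted p = 3.12e-05), and Mrpl52 from 104.29 and 97.33 FPKM to 194.91 and 204.82 FPKM (0.95 ± 0.09, adjusted p = 2.03e-06). Both LA+NTP libraries lay above the Vehicle libraries for Mrpl14 and Mrpl4, and overlapped them for Mrpl52. Mrps12 went from 20.97 and 15.04 FPKM to 35.07 and 32.35 FPKM (0.85 ± 0.15, adjusted p = 0.000287). Mrpl55 (0.86), Mrpl57 (0.85) and Mrpl34 (0.83) followed, and the other 6 calls lay between 0.60 and 0.70.

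The 3 members called lower were Mrpl50, Mrpl1 and Mrpl32, the last of which is matured inside mitochondria by the m-AAA protease. Mrpl50 went from 30.79 and 33.39 FPKM to 22.13 and 20.97 FPKM (-0.61 ± 0.07, adjusted p = 5e-06), Mrpl1 from 23.61 and 23.75 FPKM to 16.55 and 15.05 FPKM (-0.60 ± 0.08, adjusted p = 1.91e-05) and Mrpl32 from 48.09 and 49.16 FPKM to 34.32 and 32.05 FPKM (-0.59 ± 0.09, adjusted p = 6.69e-05). No library of LA+NTP reached an LA library in these genes. All 3 stood so near the fold threshold that other scalings took the call away at values of -0.54 to -0.58 with an adjusted p still under 0.05.

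The count of 16 calls fell to 10 without LA replicate 2. The calls lost then were those of Mrpl36 (0.58), Mrpl38 (0.56), Mrpl43 (0.57), Mrpl50 (-0.57), Mrps24 (0.58), Mrps6 (0.46) and Mrps16 (0.37, adjusted p = 0.0488). Without LA+NTP replicate 2 those of Mrpl38 (0.58), Mrps24 (0.52), Mrps6 (0.54), Mrps16 (0.50), Mrpl1 (-0.57) and Mrpl32 (-0.56) were lost, Mrpl43 (0.54) was lost without LA+NTP replicate 1, and Mrps16 (0.58) was lost without PA replicate 1, which is in neither group and changed only the shared fit. Transcripts of other genes share 38.5% of the 31-base sequences of Mrpl43, mainly those of its neighbor Twnk, 18.4% of Mrps6 and 16.4% of Mrps24, so their counts could hold reads of those genes. After the GC trend had been removed, 4 members were called higher (3.37% of all genes), namely Mrpl57 (1.23), Mrps16 (0.71), Mrpl55 (0.67) and Mrpl17 (0.59), and 1 lower (2.40%), Mrps18a (-0.62). Mrpl38 was at -0.01, so its direction did not hold. Mrpl36 was at 0.55, Mrpl43 at 0.51 and Mrps24 at 0.38, each with an adjusted p under 0.05. Mrps6 was at 0.38 with an adjusted p of 0.0535. Mrpl14 was at 0.42, Mrpl52 at 0.51, Mrpl34 at 0.29 and Mrpl50 at -0.23, all with an adjusted p under 0.05, while Mrpl4 (0.31, adjusted p = 0.0787), Mrps12 (0.27, adjusted p = 0.215), Mrpl1 (-0.15, adjusted p = 0.204) and Mrpl32 (-0.21, adjusted p = 0.1) did not pass it. With a length trend removed instead, 7 members were called higher and 5 lower, and 20 were higher and 33 lower at an adjusted p under 0.05 alone. With library-size scaling 17 were called higher and none lower. The median over all genes was -0.037 with the length trend removed and 0.051 with library-size scaling. Shares over all genes were not counted in either setting.

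Against Vehicle, the members of the NTP groups differed little. With PA+NTP, no member was called higher (1.21% of all genes) or lower (1.64%). At an adjusted p under 0.05 alone, 4 rose (4.50% of all genes) and none fell (5.61%). An unadjusted p under 0.05 was found for 9 of the 78 members (8 by DESeq2) and for 3476 of all 14097 genes. The 4 were Mrps18b (0.41 ± 0.06, adjusted p = 0.00105, from 89.35 and 93.96 FPKM to 122.89 and 124.28 FPKM), Mrpl38 (0.25), Mrpl19 (0.26) and Mrps25 (0.22), named after their values were seen where they lie outside the rule for named genes. The count of 4 became 1 without Vehicle replicate 2 and in a fit of only the groups compared, 2 without Vehicle replicate 1, PA+NTP replicate 2 or any 1 of the LA and LA+NTP libraries, 6 without PA+NTP replicate 1 and 7 with library-size scaling. With LA+NTP, none was called higher (0.0567% of all genes) or lower (0.0355%), none passed the adjusted p (0.192% of all genes rose and 0.0922% fell, and 1 member passed by DESeq2), and 10 had an unadjusted p under 0.05 (7 by DESeq2, and 2 without Vehicle replicate 2 or without LA+NTP replicate 2). Of all 14097 genes, 2014 had an unadjusted p under 0.05 with LA+NTP relative to Vehicle. The members' median relative to Vehicle was 0.052 after PA+NTP and 0.003 after LA+NTP.

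The effect of NTP was tested for a difference between the FFAs as an interaction. No member was called (0% of all genes), also without the fold threshold (0%). An unadjusted p under 0.05 was found for 7 of the 78 members (5 by DESeq2) and for 1029 of all 14097 genes. The largest value was that of Mrpl53 (0.42 ± 0.19, adjusted p = 0.684), and the smallest adjusted p that of Mrps21, an abundant small subunit protein (0.41 ± 0.11, adjusted p = 0.629). Transcripts of Gm42688 share 84.4% of the 31-base sequences of Mrpl53. The FPKM of Mrps21 was 95.65 and 96.40 with PA and 98.40 and 100.11 with PA+NTP, but 83.87 and 82.55 with LA and 116.71 and 108.94 with LA+NTP.

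PA vs Vehicle and LA+NTP vs LA have no library in common, and neither have LA vs Vehicle and PA+NTP vs PA. Over the 78 members, the log2 fold changes of the first pair correlated at Pearson's r = -0.924 (Spearman's rho -0.914), and those of the second pair at r = -0.937 (rho -0.915). The same r was -0.568 and -0.615 over all tested genes, but -0.839 and -0.904 over the 9281 genes with at least 100 counts in every library, the depth the members have. In the first pair 68 of 78 members had opposite signs (87.2%, against 83.9% of those 9281 genes), and in the second pair 64 (82.1% against 87.5%). All 18 members that fell with PA at an adjusted p under 0.05 were among the 26 that rose with LA+NTP relative to LA, and 19 of the 24 that rose with PA were among the 21 that fell. With LA, 18 of the 21 members that fell were among the 19 that rose with PA+NTP relative to PA, and all 14 that rose were among the 21 that fell. The same overlaps were not counted over all genes, so these counts do not set the members apart. These correlations run across genes, which are not independent replicates, and the points share depth and base composition. After the GC trend had been removed, r was -0.903 and -0.925 over the members and -0.731 and -0.813 over the 9281 genes, and the shares with opposite signs were 85.9% against 77.6% and 88.5% against 81.0%.

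**Figure D4:**
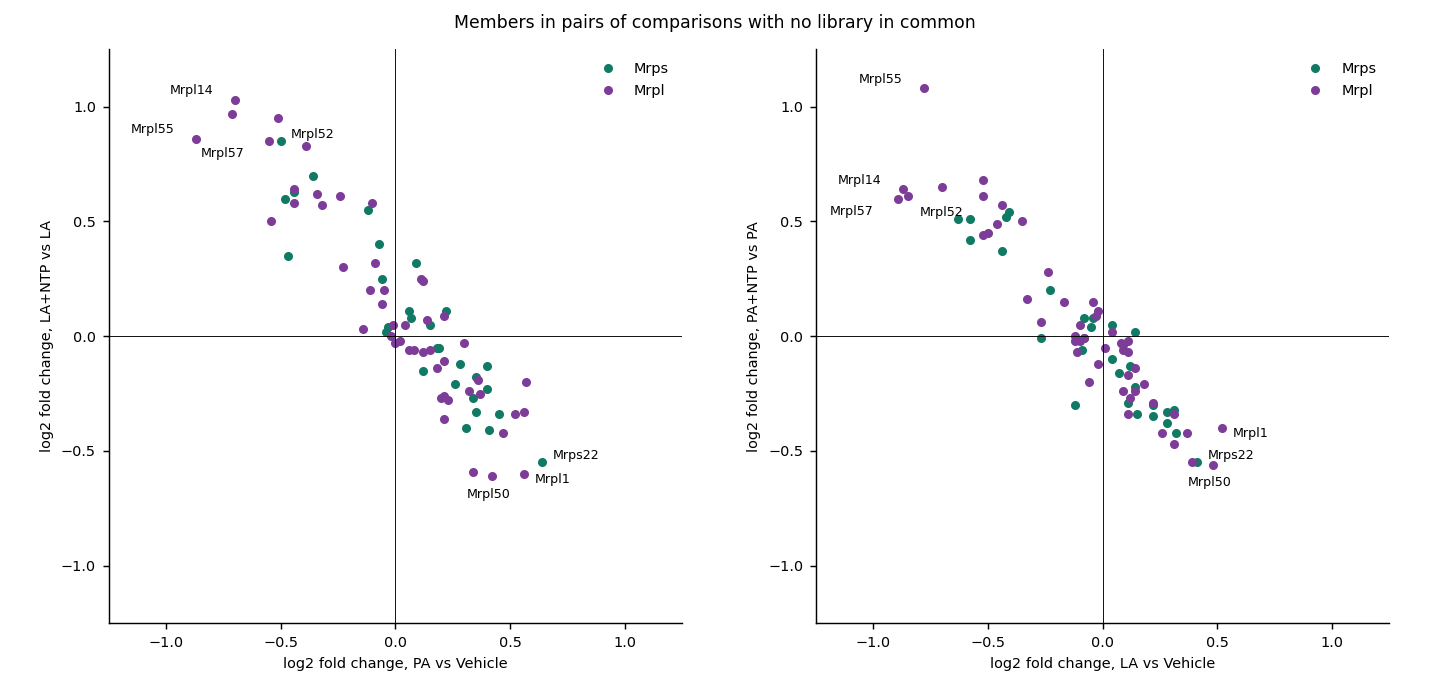
Log2 fold change of each member with an FFA relative to Vehicle (x axis) against that with NTP before the other FFA relative to that FFA alone (y axis), green for Mrps and purple for Mrpl genes. The points run from upper left (Mrpl55, Mrpl14, Mrpl52 and Mrpl57) to lower right (Mrps22, Mrpl1 and Mrpl50), with r = -0.924 at the left and r = -0.937 at the right.

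The direction of a member went with the GC content of its transcript, which ranged from 39.6% to 60.6%. Across members, Spearman's rho between GC content and log2 fold change was -0.461 with PA, -0.459 with LA, 0.413 with PA+NTP relative to PA and 0.487 with LA+NTP relative to LA, and over all genes it was -0.522, -0.641, 0.577 and 0.680. The 39 members of higher GC content had medians of -0.063, -0.118, 0.047 and 0.303 in that order, and the 39 of lower GC content 0.199, 0.091, -0.140 and -0.107. Of the 33 calls in the 4 comparisons, 9 were kept after the GC trend had been removed, 23 fell short of a threshold and 1, that of Mrpl38, turned in sign. The 9 were the calls of Mrpl55 in 4 comparisons, of Mrpl57 in 3, of Mrpl36 with PA+NTP and of Mrps16 with LA+NTP. Mrpl57 stood apart, since its transcript is poor in GC (42.3%) and it moved with the GC-rich members. The part of base composition in these results was not tested.

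**Figure D5:**
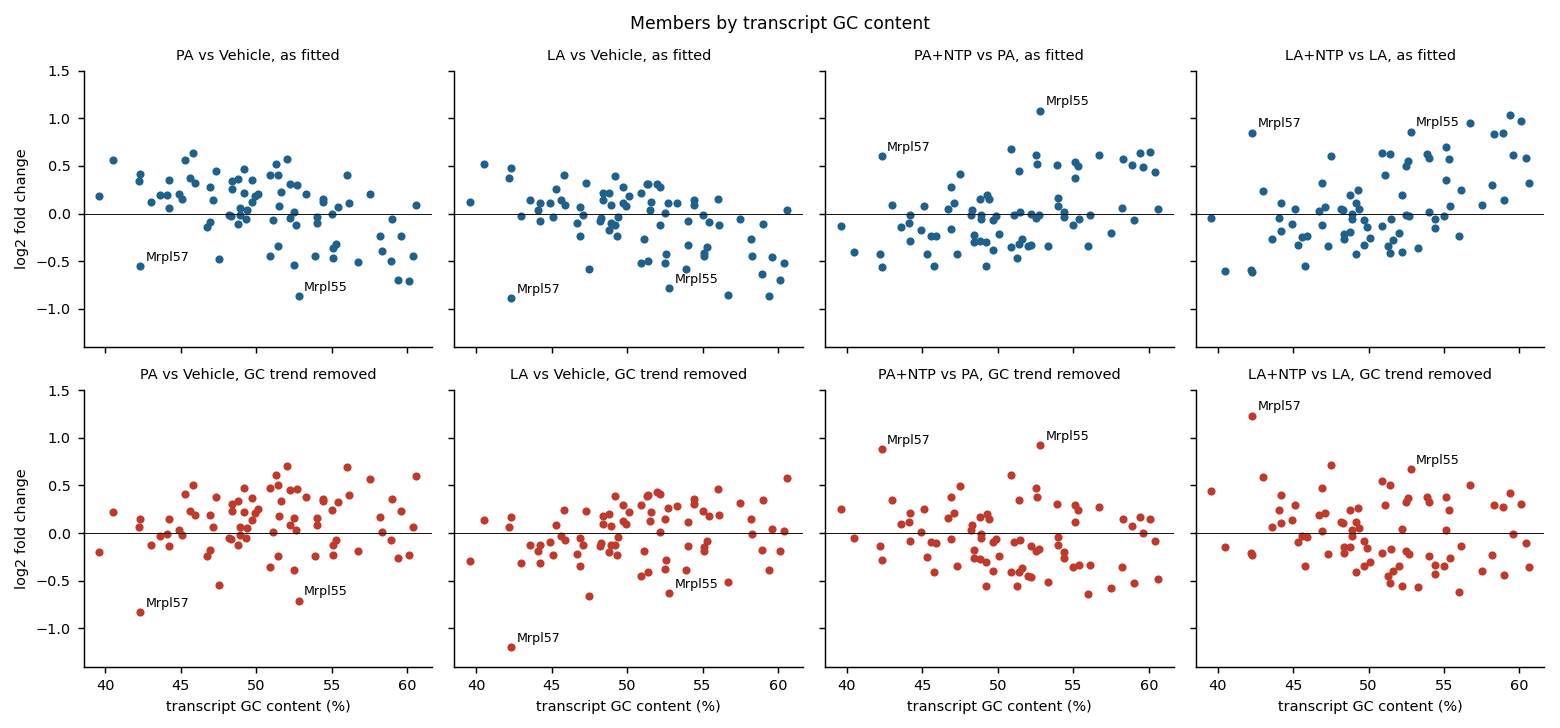
Log2 fold change of each member against the GC content of its transcript (%), as fitted (upper row, blue) and after removal of a smooth GC trend from each library (lower row, red), for 4 comparisons. In the upper row the points slope down with PA and LA (rho -0.461 and -0.459) and up with NTP (0.413 and 0.487), and Mrpl55 and Mrpl57 stay far from 0 in the lower row.

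Genes that are related by sequence or position did not move as one. Of the 3 relatives of the bacterial S18 protein, Mrps18a rose with PA from 68.07 and 64.12 FPKM to 81.86 and 88.10 FPKM (0.40 ± 0.07, adjusted p = 0.0005) and Mrps18c from 57.80 and 55.46 FPKM to 84.98 and 68.61 FPKM (0.45 ± 0.11, adjusted p = 0.00405). Mrps18b was at 89.35 and 93.96 FPKM with Vehicle and at 78.46 and 86.08 FPKM with PA (-0.12 ± 0.06, adjusted p = 0.152). With LA, Mrps18b fell to 64.40 and 68.56 FPKM (-0.42 ± 0.06, adjusted p = 0.000149), and it rose with NTP in both arms (0.52 and 0.55), while Mrps18a and Mrps18c fell in both (-0.34 and -0.42 in the PA arm, -0.23 and -0.34 in the LA arm). With the GC trend removed, these signs with NTP held, Mrps18b was at 0.03 with PA, and Mrps18c with LA+NTP (-0.22, adjusted p = 0.143) no longer passed. Other genes share 31.6% of the 31-base sequences of Mrps18b and 34.5% of Mrps18c.

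Mrps11 and Mrpl46, a pair named after their values were seen, start from opposite strands of the sequence printed above and share 141 bases of their promoter windows. Mrps11 fell with PA from 21.89 and 20.16 FPKM to 13.65 and 15.54 FPKM (-0.47 ± 0.10, adjusted p = 0.00121), while Mrpl46 rose from 15.20 and 15.03 FPKM to 19.12 and 17.56 FPKM (0.30 ± 0.09, adjusted p = 0.0165). With the GC trend removed, Mrpl46 was at 0.46 and Mrps11 at -0.23 with an adjusted p of 0.0853. In RefSeq the genes do not overlap (Mrpl46 at chr7:78775341-78783089, Mrps11 at chr7:78783131-78792988). Exons of both in the GENCODE annotation overlap over 173 bases. Neither the annotation behind the deposited counts nor the use of strand is stated. Whether the counts of either gene hold reads of the other was not tested.

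Besides Mrps18a, 3 members have names that do not give their place or role away. Mrps30 rose with PA from 35.28 and 37.30 FPKM to 44.71 and 45.96 FPKM (0.35 ± 0.07, adjusted p = 0.000685) and fell with PA+NTP relative to PA (-0.29 ± 0.07, adjusted p = 0.00262), but neither passed with the GC trend removed (0.15, adjusted p = 0.0994, and -0.08, adjusted p = 0.427). Mrps36 was at 25.67 and 23.55 FPKM with Vehicle and 30.56 and 30.13 FPKM with PA, which did not pass the test (0.34 ± 0.15, adjusted p = 0.0745). Mrpl58 stayed between 44.86 and 52.61 FPKM in all 10 libraries, with log2 fold changes from -0.12 to 0.00 in the 4 comparisons, none past the adjusted p. With the GC trend removed, Mrpl58 was at -0.36 (adjusted p = 0.00816) with PA+NTP relative to PA and at -0.35 (adjusted p = 0.00877) with LA+NTP relative to LA. The values with PA (0.24, adjusted p = 0.0555) and LA (0.23, adjusted p = 0.0912) did not pass.

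Beyond the symbols, 63 genes of mitochondrial translation were followed: 5 mitoribosome proteins with other names, 20 assembly factors, 12 translation factors, 20 aminoacyl-tRNA synthetases and amidotransferase genes, and 6 genes of mitochondrial transcription and RNA stability. At an adjusted p under 0.05, 19 rose and 7 fell with PA (23.5% and 22.0% of all genes), 17 rose and 11 fell with LA (20.8% and 20.5%), 8 rose and 18 fell with PA+NTP relative to PA (21.7% and 23.0%), and 11 rose and 20 fell with LA+NTP relative to LA (25.9% and 25.6%). At the fold threshold, 2 were called higher and 2 lower with PA (6.00% and 8.92% of all genes). With LA these were 1 and 3 (3.53% and 7.11%). Relative to the FFA alone they were 3 and 3 with PA+NTP (8.74% and 5.11%). For LA+NTP they were 6 and 2 (11.7% and 7.57%). After the GC trend had been removed, they were 3 and 0 with PA (3.77% and 4.76%) and 0 and 1 with LA (1.05% and 2.18%). The NTP comparisons then gave 2 and 0 (3.62% and 2.52%) in the PA arm and 2 and 2 (3.37% and 2.40%) in the LA arm. The 6 genes of transcription and RNA stability had medians of 0.37, 0.31, -0.43 and -0.47, against -0.008, -0.007, 0.010 and 0.009 over all genes.

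The assembly factor Mettl17 was called in all 4 comparisons, at -0.63 with either FFA, 0.78 with PA+NTP and 0.84 after LA+NTP, the directions of Mrpl55. With the GC trend removed these were -0.45, -0.45, 0.60 and 0.62. Guf1, a translation factor of the elongation factor family, was called lower with NTP in both arms (-0.76 ± 0.08 and -0.78 ± 0.08, or -0.48 and -0.40 with the GC trend removed). Tefm, which keeps the mitochondrial RNA polymerase elongating, was called higher with LA (0.63 ± 0.13) and lower with NTP (-0.63 and -0.89), with 0.43, -0.45 and -0.64 after removal of the GC trend, while the polymerase itself, Polrmt, was called lower with LA (-0.68 ± 0.10) and higher with LA+NTP (0.82 ± 0.10), and stood at -0.12 and 0.11 after the GC trend had been removed. Fastkd2 (0.61) and Rars2 (0.59) were called higher with PA and Cars2 (-0.60) lower, and with the GC trend removed they were at 0.34, 0.39 and -0.32 (adjusted p = 0.0825 for Cars2). With PA+NTP relative to PA, Cars2 (0.59) and Sars2 (0.70) were called higher and Mtrf1 (-0.60) lower. Their values with the GC trend removed were 0.30, 0.20 and -0.44. Vars2 was called lower with LA (-0.63, or -0.19 with the GC trend removed). With LA+NTP relative to LA, Vars2 (0.82), Gadd45gip1 (0.72), Mrm2 (0.71) and Slirp (0.68) were called higher. With the GC trend removed these 4 were at 0.26, 0.42, 0.36 and 1.02.

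The cytosolic ribosomal protein genes, 86 of them tested, had medians of -0.063 with PA and -0.180 with LA, and of 0.059 and 0.175 with NTP before PA and LA. With the GC trend removed these were 0.021, -0.096, 0.007 and 0.053, against 0.037, 0.028, -0.035 and -0.032 over all genes, so the sign with PA turned. At an adjusted p under 0.05, 37 of the 86 fell with LA and 10 rose, against 21 and 14 of the 78 mitochondrial ones, where 20.5% of all genes fell and 20.8% rose. The difference between these families was not tested.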

How the data were processed

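For every library, expected counts and FPKM values per gene were deposited, which the authors, according to their methods, obtained with HISAT and Bowtie2 for alignment and RSEM for quantification (mm10, per the submitters' processing notes, versions and annotation not given in the sources used here). The deposited expected counts are estimates without normalization between libraries. The deposited FPKM values had been scaled, by the authors, for length and depth. Groups and replicate numbers followed the sample labels, although the numbers in the files differ from them. Genes listed in only some libraries were taken as 0 elsewhere. Gene IDs were matched to RefSeq symbols of GRCm38.p6 (17998 by ID and 11 by accession of 18055).

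Expected counts were rounded and fitted over all 10 libraries with the 5 groups as 1 factor, using edgeR 4.0.16 in R 4.3.3 (TMM factors 0.977 to 1.037, filterByExpr, which kept 14097 genes and dropped 3958, quasi-likelihood F test, Benjamini-Hochberg adjustment over all genes). The fold threshold of 1.5 is that of the study's methods, whose NOISeq was not run here. GC trends were removed per library by loess (span 0.4). DESeq2 1.42.0, limma 3.58.1 on log2(FPKM + 1) and log2(FPKM + 0.1), other scalings and filters, the replicate block and leaving out each library were the alternatives. Sequence shared between genes was measured by 31-base words in GENCODE transcripts, and exon overlaps and GC content were taken from GENCODE too. In data simulated for PA vs Vehicle over 14097 genes, tested at an adjusted p under 0.05, 78% of genes changed 2-fold and 56% of those changed 1.5-fold were found, with 11 false calls. The simulation changed 200 genes drawn at any depth, while 3310 genes rose and 3101 fell in the data. Its rates therefore do not give the share of changed members that would be found. The members and all lists were chosen with earlier results of these data known. Named members are those called in any comparison, the 4 highest and 3 lowest in mean FPKM, the 2 largest changes in each direction per comparison, and 8 members named for their roles.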

Additional observations from a re-analysis of the deposited data

Results flagged for a closer look

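In 3 members both PA libraries lay above both Vehicle libraries in FPKM while both LA libraries lay below them. The log2 fold changes were 0.12 with PA and -0.03 with LA for Mrpl17, 0.14 and -0.02 for Mrpl19, and 0.15 and -0.04 for Mrps25. After the GC trend had been removed, Mrpl17 was at -0.12 with PA and -0.31 with LA (edgeR adjusted p = 0.0105 for LA) and Mrps25 at -0.02 and -0.23 (adjusted p = 0.0303 for LA), so both values had 1 sign, and Mrpl19 was at 0.06 and -0.12. As first fitted, none passed the adjusted p in either comparison, the difference between the FFAs was not tested, and both comparisons share the Vehicle libraries. The exons of Mrps25 overlap those of Nr2c2, and 68.9% of its 31-base sequences occur in transcripts of other genes. Groups of 2 libraries were not tested for a library that stands apart. Between the 2 libraries of a group, chi-square per gene was 16.01 in PA+NTP and 3.73 to 8.94 in the other groups.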

How the results depend on the processing

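The 33 calls of members kept their direction in every alternative, except that of Mrpl38 with LA+NTP, which was at -0.01 after removal of the GC trend, with the replicate block or without it. All 33 stayed called with DESeq2, with its size factors, in fits of only the groups compared and with the replicate block. The replicate numbers did not pair the libraries (10 correlations from -0.069 to 0.127, 2 over 0.1), and with the replicate block 4, 6, 7 and 16 members were called with PA, LA, PA+NTP relative to PA and LA+NTP relative to LA, as without it. Without a fold threshold, 42, 35, 40 and 47 members passed in that order and 4 with PA+NTP relative to Vehicle. With the GC trend removed as well these were 29, 25, 34, 41 and 4, of which 23, 12, 11, 20 and 4 were higher (24, 14, 19, 26 and 4 before removal). Of all 14097 genes, 2651, 1408, 1520, 1598 and 608 were higher after that removal, and 1793, 1057, 2316, 2291 and 764 were lower. With the fold threshold, removal of the GC trend gave 3 calls with LA, 4 with PA+NTP and 5 with LA+NTP, with or without the block, of which 2, 3 and 3 were among the original calls. Removal of a length trend gave 7 calls with PA and took 12 of the 33 calls short of a threshold. Shares over all genes are not given for the length trend or for alternatives other than the GC trend. Leaving out 1 library gave 4 to 9, 5 to 10, 5 to 14 and 10 to 18 calls.

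The members' median with PA was 0.059 and 0.062 with limma (pseudocounts of 1 and 0.1), 0.143 with the GC trend removed (0.144 with the block), 0.167 with the length trend removed, and 0.037 to 0.129 when 1 library was left out. With LA it was -0.069 with library-size scaling, -0.065 and -0.068 with limma and 0.053 with the length trend removed. With PA+NTP relative to PA it was 0.034, 0.030 and 0.030 in the first 3 of these settings, -0.075 with the GC trend removed (also with the block), -0.106 with the length trend removed, and -0.102 to 0.040 when 1 library was left out. With LA+NTP relative to LA it was 0.067 with library-size scaling, -0.021 with the GC trend removed (-0.020 with the block), -0.138 with the length trend removed, and -0.028 to 0.027 when 1 library was left out. With PA+NTP relative to Vehicle it ranged from 0.014 to 0.128. The median over all genes moved with the setting too. With library-size scaling it was -0.041 with PA, -0.053 with LA, 0.068 with PA+NTP relative to PA and 0.051 with LA+NTP relative to LA. In that order it was 0.037, 0.028, -0.035 and -0.032 with the GC trend removed. After removal of the length trend it was 0.033, 0.034, -0.034 and -0.037. Between the replicates of a group, the members' median varied with an SD of 0.04, pooled over the groups. As deviation from each gene's mean, it stood at -0.032 and 0.082 in the 2 PA+NTP libraries. Medians within that SD of 0 cannot be told from 0 with these libraries. Larger ones were not tested and need not differ from 0. The cause of the shifts between settings was not tested. With 2 libraries a group, a lone library left in a group is assumed to vary like the others.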
